A study of Mus musculus with 48 samples.

Results

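Integrins are cell-surface adhesion receptors, and the 8 integrin genes described here encode the chains that T cells use for homing, for contact with target cells and for staying in tissue: Itga1, Itga4, Itgae, Itgal, Itgav, Itgb1, Itgb2 and Itgb7. Their chromatin was read by ATAC-seq, an assay that cuts and tags open DNA with a transposase. The reads of a peak therefore measure how accessible a site is, and not how much RNA or protein the gene makes. A peak was counted to an integrin gene when it overlapped the gene body, or when that gene body was the nearest within 100 kb. By that rule 66 of 53868 peaks belonged to the 8 genes: 18 to Itgb1, 14 to Itgav, 11 to Itga1, 6 to Itgae, 5 each to Itga4 and Itgb2, 4 to Itgal and 3 to Itgb7. Of the 66, 34 overlapped a gene body. The peaks are numbered here along the chromosome within each gene, and a value is the number of normalized reads of a peak in a library.

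The cells were OT-1 CD8 T cells, whose receptor recognises an ovalbumin peptide, carrying Cas9 and the CD45.1 allele in all groups. All received a lentiviral vector with 1 guide RNA and an ametrine reporter, went into young or aged mice a day before B16-OVA melanoma cells were implanted, and were sorted from the tumours on day 15. The guides were the control called OTC, Zfp219 or Dusp5. The sorted states were Tprog (Slamf6+Tim-3-, progenitor exhausted), Ttran (Slamf6+Tim-3+, transitory and effector-like), Tterm (Slamf6-Tim-3+, terminally exhausted) and Ttad (Slamf6-Tim-3-, age-associated dysfunctional), the last from aged hosts in the libraries used here. The 48 libraries form 21 groups, 15 of 2 and 6 of 3 libraries. Each library held 5000 to 50000 cells pooled from several mice. The p-values therefore measure the spread between pools, and which mice went into which pool was not used here. Host age is given as young or aged without a number of weeks. The sample numbers in the column names run from S1 to S24 separately for each age, so host age and sequencing sheet cannot be told apart. In such bulk samples, fewer cells with an open site and less opening per cell cannot be told apart either. Whether a guide had cut its gene was not checked here, because accessibility at Zfp219 or Dusp5 does not report a cut.

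An integrin works as a pair of 1 alpha and 1 beta chain, and the chains named here share partners. Itgb1 pairs with Itga1 to form VLA-1 (CD49a), a collagen receptor of tissue-resident T cells, and with Itga4 to form VLA-4, which binds VCAM-1 on inflamed endothelium. Itgb7 pairs with Itga4 in the gut-homing receptor for MAdCAM-1 and with Itgae (CD103) in the receptor for E-cadherin on epithelium. Itgal and Itgb2 form LFA-1, the ICAM-1 receptor that holds T cells to endothelium and to target cells. Itgav pairs with several beta chains, and some of these pairs release active TGF-beta from its latent form.

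Promoter sequence was found for 5 of the 8 genes in the RefSeq table of GRCm38.p6 (Itga1, Itga4, Itgav, Itgb1 and Itgb7). The promoters of 3 genes are printed, each the 250 bases before the start site in the direction of transcription, because the promoter peaks of these genes behaved unlike each other: that of Itgav differed between states, that of Itga4 differed with host age, and that of Itgb1 was not called between Tprog and Tterm although sites around it were. Capitals mark GGAAGT (the core of ETS factor sites) and TGTGGT (the core of RUNX factor sites) on either strand, so that ACTTCC and ACCACA are the same motifs read from the other strand. The Itgav window is chr2:83724147-83724396, plus strand, inside peak 7. The Itga4 window is chr2:79255176-79255425, plus strand, inside peak 4. The Itgb1 window is chr8:128685404-128685653, plus strand, inside peak 9.
Itgav: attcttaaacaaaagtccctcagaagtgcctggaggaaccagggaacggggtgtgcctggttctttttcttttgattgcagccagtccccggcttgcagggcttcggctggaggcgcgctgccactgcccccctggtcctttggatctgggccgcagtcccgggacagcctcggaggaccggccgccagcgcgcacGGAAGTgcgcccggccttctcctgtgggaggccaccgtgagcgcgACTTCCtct
Itga4: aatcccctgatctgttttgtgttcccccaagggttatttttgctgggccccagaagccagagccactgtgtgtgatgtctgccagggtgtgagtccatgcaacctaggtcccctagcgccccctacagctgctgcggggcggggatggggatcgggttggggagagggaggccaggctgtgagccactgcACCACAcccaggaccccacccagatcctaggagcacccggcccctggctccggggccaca
Itgb1: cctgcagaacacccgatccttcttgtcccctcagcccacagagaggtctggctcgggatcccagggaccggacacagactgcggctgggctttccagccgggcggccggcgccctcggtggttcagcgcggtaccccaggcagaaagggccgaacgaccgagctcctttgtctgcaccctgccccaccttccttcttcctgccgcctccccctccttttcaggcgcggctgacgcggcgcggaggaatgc
The Itgav window holds the ETS letters at 54 and at 9 bases before the start site, and the Itga4 window holds the RUNX letters at 60 bases before it. In the Itga1 window, which is not printed, the ETS letters lie 192 bases before the start site. The Itgb1 and Itgb7 windows hold neither. Of 32851 promoter windows of the same length, 19.7% hold the ETS letters and 14.05% the RUNX letters. The AP-1 letters TGANTCA are in 6.75% of windows and in 0 of these 5. No searched motif overlaps another in these windows. A match is a run of letters and was not tested as a bound site.

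The 48 libraries held a median of 14691505 reads in peaks. The 24 from aged hosts spanned 5638413 to 16159054 and the 24 from young hosts 6589023 to 29942755. The integrin peaks were somewhat narrower than the rest, with a median width of 697.5 bp against 899 bp, and weaker, with a median level of 77.1 against 93.9, and 17 of the 66 lay in the weakest 25% of peaks. All 5 CD8 T cell marker genes checked (Cd3e, Cd3d, Cd8a, Cd8b1, Cd2) had peaks, and their summed level ranged from 12421 to 16435 over libraries. Of other cell types, 3 of 6 melanoma genes had peaks (summed level 642 to 1263), as did 2 of 5 myeloid genes (688 to 1039), and Tyr, Dct, Tyrp1, Lyz2, Csf1r and Adgre1 had none. Pax5 was the 1 of 4 B cell genes with peaks and was higher in Tprog (mean 518 in aged and 552 in young control cells) than in Tterm (311 and 298). Cd4 went the other way, with 250.4 and 432 in Tprog against 455 and 528 in Tterm, as did the myeloid genes, with 739 and 877 against 988 and 958. The sum of the 2 NK cell genes (2156 to 2928 over libraries) was higher in Tprog, with 2697 and 2736 against 2324 and 2358. Nearly all of it was Klrb1c (8 peaks, 2147 to 2915), with 1.64 to 31.7 at Ncr1. The melanoma genes were higher in Tprog too, with 990 and 1230 against 872 and 992. The part of such cells in the state differences below was not tested.

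The loci differed in strength and in where it lay. Summed over its peaks and averaged over 48 libraries, the Itgav locus had 5135 normalized reads, Itgb1 2681, Itgb2 2392, Itgal 1409, Itga4 1387, Itgae 1258, Itga1 1200.2 and Itgb7 972. These totals grow with the number and width of peaks and are not a rank of gene activity. In Itgae a single peak inside the gene body (peak 1, mean 932) held 74.1% of the locus total. The strongest peak of the set was no promoter: Itgav peak 1 (mean 1843) lies 28122 bases before the start site, and Itgb1 peak 6 (mean 1136), the strongest of its gene, lies 37833 bases before it. The strongest peaks of Itga4 (peak 4, mean 744) and Itgb7 (peak 2, mean 528) cover the start site. The strongest peak of Itga1 (peak 5, mean 528) lies 2561 bases into the gene. For Itgae, Itgal and Itgb2 no start site was used here, and Itgal peak 3 (mean 686) and Itgb2 peak 1 (mean 957) cover the low-coordinate boundary of their gene bodies. Pelo lies inside Itga1 and Haspin inside Itgae, so a peak counted to the integrin may belong to the gene nested in it.

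Over the 21 groups each locus total moved by less than a factor of 2, and the order of groups differed between genes. Itga1 had the widest range, from a mean of 772 in aged OTC Tprog to 1483 in young Dusp5 Ttran, a ratio of 1.92. Itga4 ran from 975 in aged Zfp219 Tterm to 1744 in young Zfp219 Tprog (ratio 1.79), Itgav from 3959 in young Zfp219 Tprog to 6659 in aged OTC Tterm (1.68), and Itgb1 from 2021 in young Zfp219 Tterm to 3389.8 in aged Dusp5 Tprog (1.68). The narrower loci were Itgb7 (792 in aged Dusp5 Ttad to 1181 in young Dusp5 Tprog, 1.49), Itgb2 (1913 in aged Dusp5 Tprog to 2815 in aged OTC Tterm, 1.47), Itgae (1047 in aged Dusp5 Tprog to 1465 in aged Dusp5 Ttran, 1.40) and Itgal (1146 in aged Dusp5 Ttad to 1598 in young OTC Tterm, 1.39). Neighbours in these orders mostly overlapped: of the 20 neighbouring pairs of groups, 6 were separate for Itgb2, 5 for Itga1, 4 for Itgav, 3 for Itgb1 and 2 each for Itga4, Itgae, Itgal and Itgb7.

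**Figure D1:**
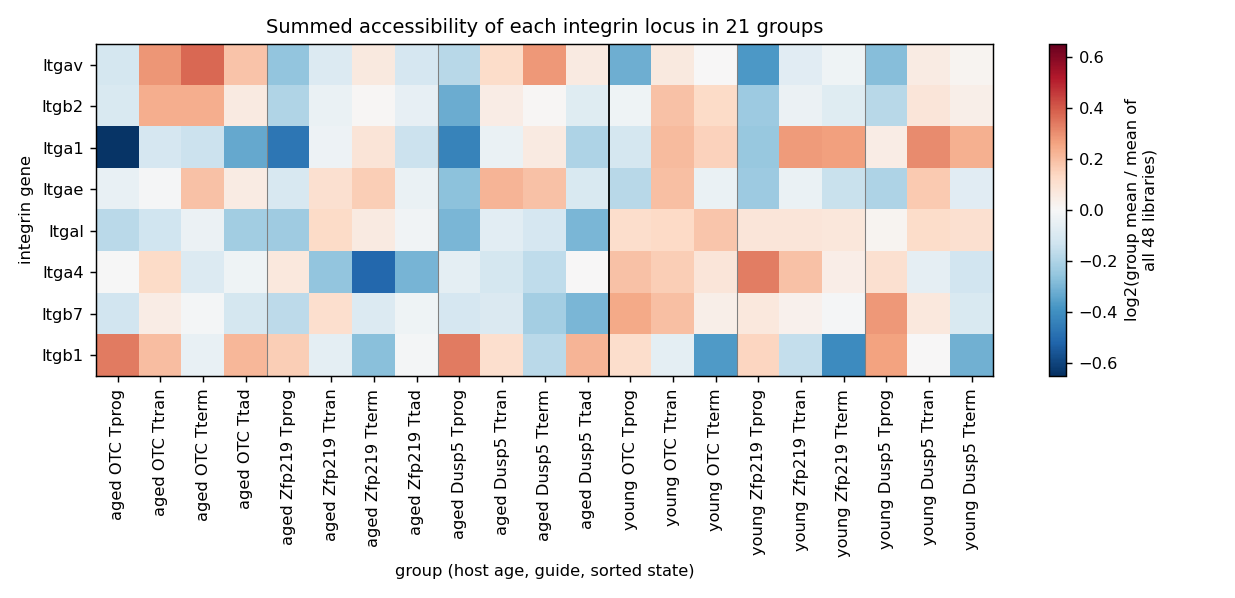
Colour gives the log2 ratio of a group's mean locus total (normalized reads summed over the peaks of the gene) to the mean of all 48 libraries, for 8 integrin genes (rows) and 21 groups (columns, aged left and young right of the black line). Itgb1 is red in the Tprog columns of each age and guide and Itgav is blue there, and the lowest value of the Itga1 row (-0.64) is in aged OTC Tprog.

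Tprog and Tterm, the ends of the exhaustion series, differed most plainly at Itgb1 and Itgav, and in opposite directions. In control cells of aged hosts 5 of 18 Itgb1 peaks were higher in Tprog and 0 were lower, and in young hosts 10 were higher and 0 lower. At Itgav 0 of 14 peaks were higher in Tprog in either age, and 6 in aged and 5 in young hosts were lower. A call here is an adjusted p under 0.05 in limma over all 53868 peaks. Over the whole set 18 of 66 peaks were called in aged hosts, a share of 27.3% against 20.1% of all peaks. Of these, 6 were higher in Tprog (8.88% of all peaks were) and 12 lower (11.2% of all peaks). In young hosts 19 were called, 28.8% against 26.5%, with 12 higher (13.9% of all peaks) and 7 lower (12.6%). Shares this close to the background say nothing particular about integrins as a class, and what follows describes single loci.

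The largest difference was at Itgb1 peak 18, a weak site 102514 bases beyond the start site (chr8:128788168-128788651). It had 41.9 and 54.1 reads in the 2 aged Tprog libraries and 5.45 and 1.83 in aged Tterm. In young hosts the values were 66.6 and 40.2 in Tprog and 8.85, 6.29 and 5.62 in Tterm. Tprog and Tterm did not overlap in either age. The log2 difference was 3.51 ± 0.76 (SE) in aged hosts (limma, adjusted p = 0.000206) and 2.76 ± 0.69 in young hosts (adjusted p = 0.00121). Sites with higher counts showed the same order, and those that follow were chosen after their values were seen.

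Itgb1 peak 12 lies inside the gene, 13989 bases from the start site. Its values were 152 and 141 in aged Tprog against 63.2 and 38.5 in aged Tterm. In young hosts it had 77.4 and 86.4 in Tprog against 16.4, 17.3 and 9.0 in Tterm. Every Tprog library was above every Tterm library, and the log2 difference was 1.55 ± 0.39 in aged (adjusted p = 0.0018) and 2.49 ± 0.36 in young hosts (adjusted p = 2.25e-08, limma). The aged call was lost without aged Tterm replicate 2 (adjusted p = 0.0838). Peak 13, 17084 bases into the gene, had log2 differences of 1.55 ± 0.39 and 1.71 ± 0.36, and peak 3, 62057 bases before it, 1.70 ± 0.29 and 1.31 ± 0.26. These 4 peaks (3, 12, 13 and 18) are the ones called higher in Tprog in both ages, 66.7% of the 6 called in aged and 33.3% of the 12 called in young hosts. The matching shares over all peaks are not given here.

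Between Tprog and Tterm the Itgb1 promoter peak itself differed less. Peak 9 had 682 and 615 reads in aged Tprog against 571 and 502 in aged Tterm, and 550.2 in both young Tprog libraries against 484, 539 and 460.1 in young Tterm. Tprog was the higher in both ages without overlap, but the log2 differences of 0.27 ± 0.12 and 0.16 ± 0.11 were not called (limma, adjusted p = 0.0859 and 0.292). The strongest site, peak 6, was called in young hosts alone, with 1199 and 1179.9 in Tprog against 963, 977 and 969 in Tterm (log2 0.29 ± 0.08, adjusted p = 0.00165). In aged hosts it had 1205 and 1327 in Tprog against 1279 and 1190.5 in Tterm, which overlap, and the test of the difference between ages did not call it (-0.26 ± 0.11, adjusted p = 0.264, limma). In sign alone, 16 of 18 Itgb1 peaks in aged and 18 of 18 in young hosts were higher in Tprog. These peaks share the same libraries and are not separate observations, and the share of all peaks with that sign is not given here.

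**Figure D2:**
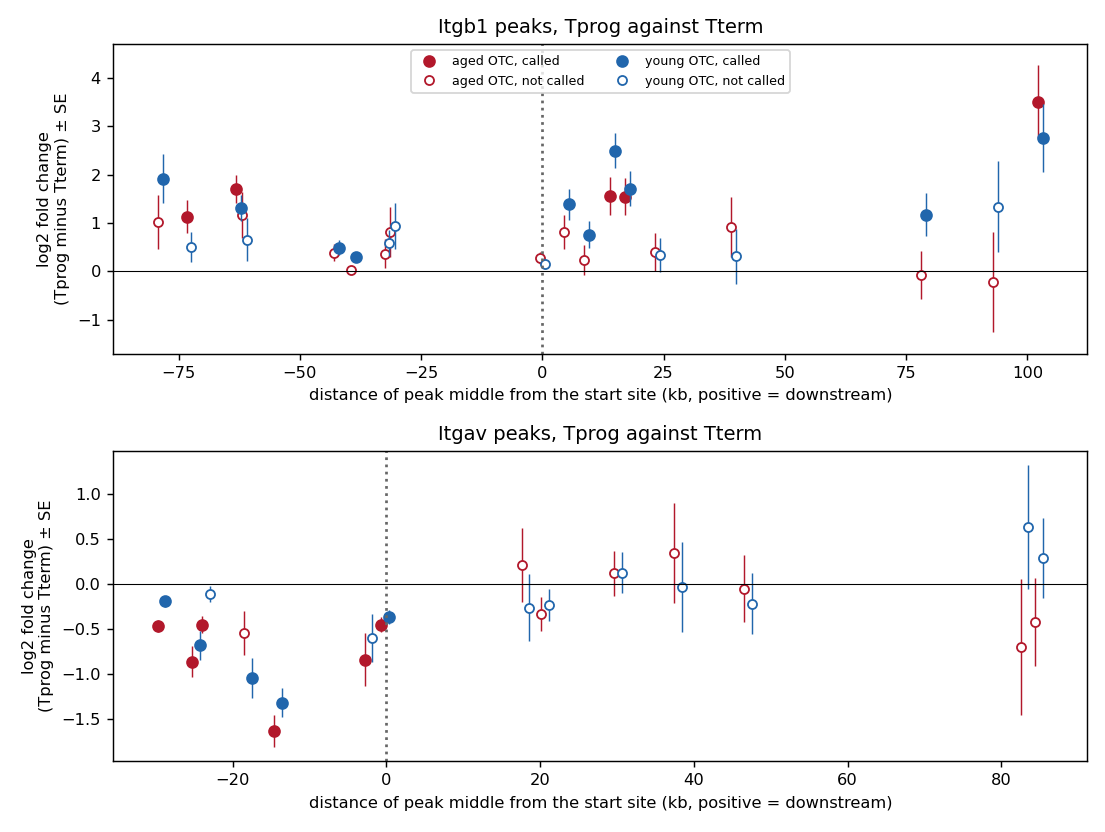
Each point is a peak of Itgb1 (top) or Itgav (bottom), placed by the distance of its middle from the start site in kb, with the log2 fold change of Tprog over Tterm (± SE) in control cells of aged (red) and young (blue) hosts; filled points were called. Called Itgb1 peaks lie on both sides of the start site and all above 0, and called Itgav peaks lie at or before the start site and all below 0.

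At Itgav the called sites all lay at or upstream of the start site, as the plot of fold change by distance shows. Peak 5, 13285 bases before it (chr2:83709486-83711112), had 97.4 and 127 reads in aged Tprog, 260.2 and 238 in Ttran, 205 and 228 in Ttad and 368 and 327 in Tterm. In young hosts it had 153 and 110.4 in Tprog, 265, 272 and 291 in Ttran and 298, 347 and 337 in Tterm. Tprog stood below every other state in both ages without overlap. The log2 difference of Tprog from Tterm was -1.63 ± 0.18 in aged hosts (limma, adjusted p = 1.66e-12) and -1.32 ± 0.16 in young hosts (adjusted p = 9.86e-11).

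The 2 strongest Itgav peaks moved the same way by smaller steps. Peak 1 had 1743 and 1886 in aged Tprog against 2441 and 2569 in aged Tterm (log2 -0.47 ± 0.07, adjusted p = 1.5e-07), and 1553 and 1451 in young Tprog against 1700.2, 1701 and 1744 in young Tterm (log2 -0.19 ± 0.06, adjusted p = 0.0192, limma). The young call was lost without Tprog replicate 2 or Tterm replicate 3 (adjusted p up to 0.247). Peak 7, which holds the promoter printed above and was added after its values were seen, had 1096 and 1052 in aged Tprog against 1417 and 1520.4 in aged Tterm (log2 -0.45 ± 0.08, adjusted p = 7.33e-06). In young hosts it had 999 and 1024 against 1240.0, 1433 and 1247 (log2 -0.37 ± 0.07, adjusted p = 5.13e-05). The ranges of Tprog and Tterm were separate at both peaks in both ages.

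Itga1 and Itgb2 followed Itgav rather than Itgb1 in direction. Itga1 peak 5, which lies within the collagen-receptor gene, had 311 and 329 in aged Tprog against 518 and 517 in aged Tterm (log2 -0.69 ± 0.13, adjusted p = 1.97e-05, limma). In young hosts it had 541 and 448 against 616, 569 and 683 (log2 -0.33 ± 0.12, adjusted p = 0.0273). The young call was lost without young Tprog replicate 2 or Tterm replicate 1 or 3 (adjusted p up to 0.406), and under quantile normalization (0.0601). Itgb2 peak 1, at the gene boundary, had 857 and 877 in aged Tprog against 1195 and 1129 in aged Tterm (log2 -0.42 ± 0.09, adjusted p = 7.19e-05). No Itgb2 peak was called in young hosts, where peak 1 had 1003 and 979.7 against 1079.5, 1074 and 1119.8. The aged-minus-young difference at peak 1, -0.28 ± 0.12, was not called (adjusted p = 0.217).

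Asked over all guides, the state order recurred. With ranges required to be separate in each of the 6 combinations of age and guide, 9 integrin peaks were higher in Tprog than in Tterm (13.6%, against 7.55% of all peaks): 8 of Itgb1 (peaks 3, 4, 7, 10, 11, 12, 13 and 18) and Itga4 peak 2. Another 8 were lower (12.1%, against 6.85%): Itgav peaks 1, 4, 5, 7 and 9, Itga1 peaks 7 and 10 and Itgb2 peak 3. The control libraries are part of these 6 combinations.

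The other alpha chains and Itgb7 had few calls. Itga4 peak 2, 26915 bases before the start site, had 336 and 389 in young Tprog against 279, 234 and 279 in young Tterm (log2 0.46 ± 0.16, adjusted p = 0.0231, limma). Without young Tprog replicate 2 or Tterm replicate 2 that call was lost (adjusted p up to 0.247). In aged hosts it had 339 and 348 against 252 and 258 and was not called. The Itga4 promoter, peak 4, was not called between Tprog and Tterm in either age. Itgal peak 3, the strongest of the LFA-1 alpha chain, was called in none of the 18 comparisons, and its log2 difference between Tprog and Tterm was -0.09 ± 0.11 in aged and -0.23 ± 0.10 in young hosts.

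Itgb7 peak 2, which covers the promoter, was the only integrin peak whose state difference depended on host age by the test of that difference (1 peak lower and 0 higher, 1.52%, against 2.32% of all peaks called, 0.512% higher and 1.81% lower). At an unadjusted p under 0.05, 9 integrin peaks passed, and the share of all peaks passing is not given here. In young hosts Itgb7 peak 2 had 684 and 677 in Tprog, 636, 711 and 632 in Ttran and 514, 528 and 494 in Tterm, so that Tterm stood below both other states. In aged hosts it had 478 and 492 in Tprog, 579 and 585 in Ttran and 544 and 521 in Tterm, so that Tprog was lowest. The Tprog-minus-Tterm log2 difference was 0.41 ± 0.11 in young (adjusted p = 0.00234) and -0.13 ± 0.12 in aged hosts (adjusted p = 0.492). Their difference was -0.54 ± 0.16 (limma, adjusted p = 0.0494), and it was lost without any 1 of the 9 libraries compared (adjusted p 0.0637 to 0.169).

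Ttran, the transitory state, sat near Tterm at Itgav and Itga1. Against Tprog in aged hosts, 18 integrin peaks were called (27.3%, against 17% of all peaks), 13 higher (9.99% of all peaks) and 5 lower (6.98%). That count became 9 without Tprog replicate 1 and 10 without Ttran replicate 2. In young hosts 11 were called (16.7%, against 16.9%), 10 higher (9.07%) and 1 lower (7.82%). The higher ones included Itgav peaks 1, 5 and 7 and Itga1 peak 5 in both ages. Under quantile normalization the aged calls at Itgav peaks 1 (limma, adjusted p = 0.128) and 7 were lost. At Itgav peak 5 the log2 difference was 1.15 ± 0.18 in aged (adjusted p = 2.62e-07) and 1.08 ± 0.16 in young hosts (adjusted p = 1.33e-07, limma), and both calls held without each library in turn. The aged call at Itgav peak 7 was lost without Tprog replicate 2 or Ttran replicate 2 (adjusted p up to 0.384), and the young call at Itga1 peak 5 without Tprog replicate 2 or Ttran replicate 1 or 2 (up to 0.483). At Itgb1 4 peaks were lower and 1 higher in aged Ttran than in aged Tprog. The promoter, peak 9, was among the lower ones. That call was lost without Tprog replicate 1 or Ttran replicate 2 (limma, adjusted p up to 0.201).

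Against Tterm, Ttran differed at few integrin peaks, as it did over all peaks. In aged hosts 2 were called (3.03%, against 3.22% of all peaks), Itgb1 peak 6 higher (1.87% of all peaks) and Itgae peak 6 lower (1.35%), and 0 without Tterm replicate 1. In young hosts 7 were higher and 0 lower (10.6%, against 8.38%, of which 5.02% higher and 3.36% lower), and 4 were called without Tterm replicate 3. Of those 7, 5 belonged to Itgb1 (peaks 3, 6, 10, 12 and 13). At peak 12 young Ttran lay between Tprog and Tterm, with 48.1, 52.4 and 33.8, above Tterm by a log2 difference of 1.61 ± 0.32 (limma, adjusted p = 0.000207). The other 2 were Itgae peak 1 and Itgb7 peak 2, the latter lost without Tterm replicate 3 or Ttran replicate 2 (adjusted p up to 0.08).

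At Itgae, the CD103 chain, the strongest site was highest in Ttran in young hosts. Peak 1 had 1051, 1084 and 1064 in young Ttran, above 822 and 859 in Tprog and 803, 835 and 889 in Tterm. The ranges did not overlap, and the log2 difference was 0.34 ± 0.08 from Tprog (adjusted p = 0.00138) and 0.34 ± 0.07 from Tterm (adjusted p = 0.000856, limma). In aged hosts the order was another one: 976 and 888 in Tprog, 1079 and 980.4 in Ttran, 1009 and 1008 in Ttad and 1136 and 1080.5 in Tterm. Aged Tprog was called lower than aged Tterm. That call was lost without Tprog replicate 2 or either Tterm library (limma, adjusted p up to 0.319) and under quantile normalization (0.356). Whether the order of states depends on age was tested for Tprog against Tterm alone, where the difference of -0.25 ± 0.12 was not called (adjusted p = 0.365).

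Ttad was negative for both sorting markers and labelled age-associated. It was called more open than Tterm at 4 of 18 Itgb1 peaks, and more open than Tprog at 3 of 14 Itgav peaks. Against Tterm 4 integrin peaks were higher, all of Itgb1 (3, 12, 13 and 18), and 4 were lower, namely Itga1 peak 1, Itgae peak 6, Itgav peak 5 and Itgb2 peak 1 (12.1%, against 7.28% of all peaks, 3.02% higher and 4.26% lower). Against Tprog 4 were higher, Itga1 peak 5 and Itgav peaks 1, 3 and 5, and 0 were lower (6.06%, against 6.55%, of which 3.82% higher and 2.73% lower). Itgb1 peak 12 had 137 and 132 in Ttad, beside 152 and 141 in Tprog and 63.2 and 38.5 in Tterm, a log2 difference of 1.43 ± 0.39 from Tterm (limma, adjusted p = 0.0119) and of -0.12 ± 0.39 from Tprog (adjusted p = 0.919). Itgav peak 5 in Ttad was intermediate and separate from both, 0.95 ± 0.18 above Tprog (adjusted p = 9.62e-05) and 0.68 below Tterm (log2 -0.68 ± 0.18, adjusted p = 0.0067).

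The Ttad counts rest on 2 libraries a state. With any 1 of the 4 Ttad and Tterm control libraries left out, the count of 8 against Tterm became 1 to 3, the fewest without Ttad replicate 1. The Itgb1 peak 12 call was lost without either Ttad library or Tterm replicate 2 (adjusted p up to 0.233), and the Itgav peak 5 call against Tterm without Ttad or Tterm replicate 1 (up to 0.118). Against Tprog the count of 4 became 1 without Tprog replicate 1 and 2 without Ttad replicate 1. Of these calls against Tprog, those at Itgav peaks 1 and 3 were lost without Tprog or Ttad replicate 1. That at Itga1 peak 5 was lost without Tprog replicate 1 or Ttad replicate 2. Itgav peak 1 was also lost under quantile normalization (limma, adjusted p = 0.414), and Itgav peak 5 held without each library in turn. With separate ranges required in all 3 aged guides, 6 peaks were higher in Ttad than in Tterm (9.09%, against 4.49% of all peaks), all of Itgb1 (1, 3, 6, 7, 11 and 12). A further 8 were lower (12.1%, against 5.59%): Itga1 peaks 1, 5 and 7, Itgae peak 1 and Itgav peaks 2, 5, 7 and 9.

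**Figure D3:**
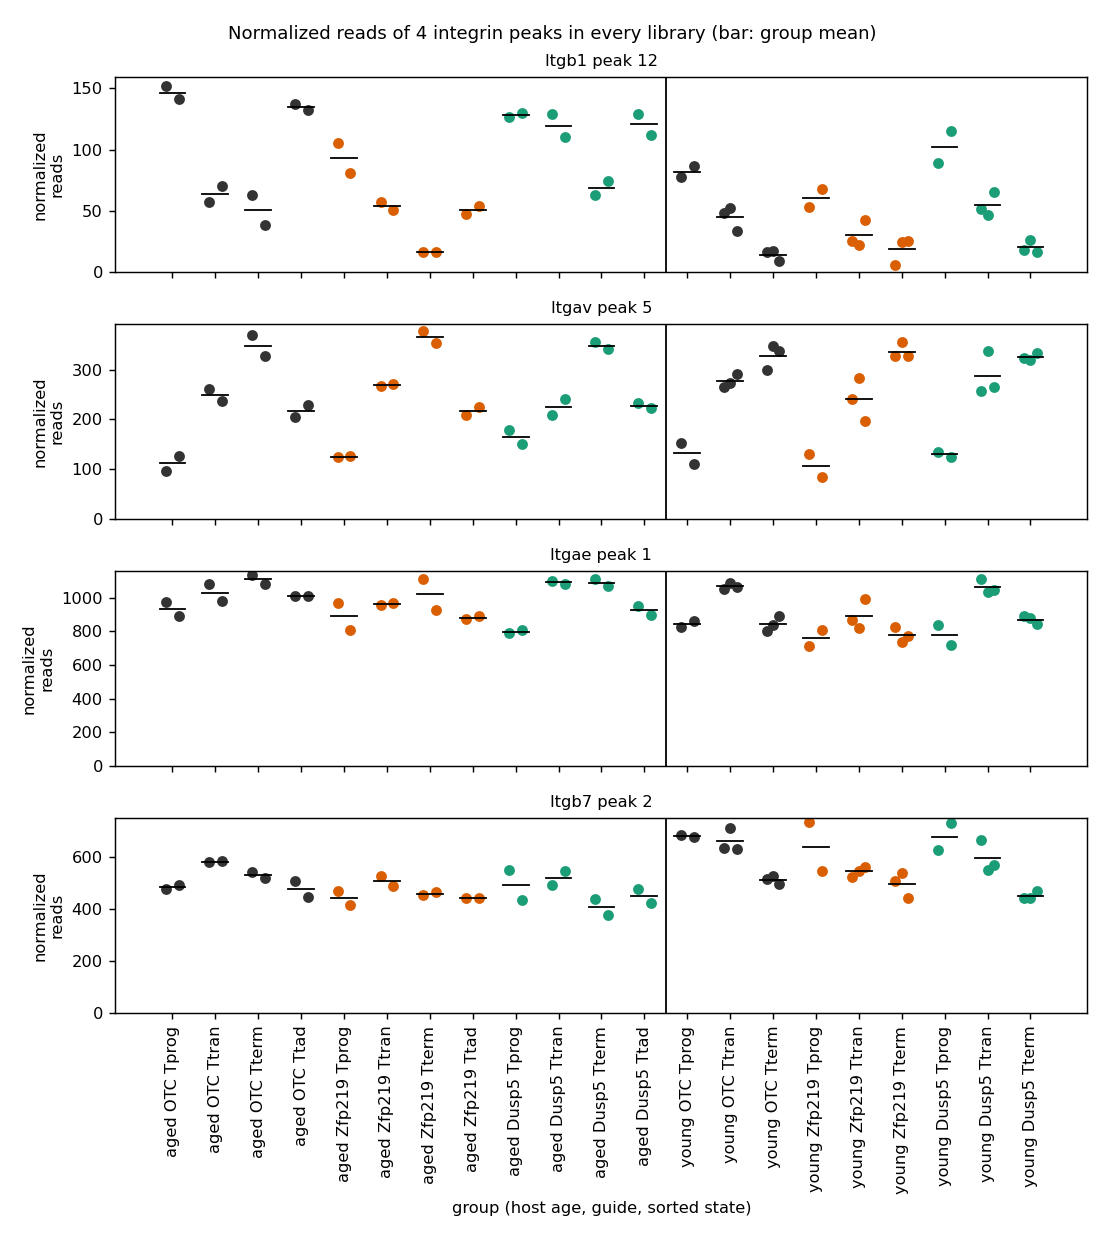
Normalized reads (vertical axis, from 0) of 4 integrin peaks in each of the 48 libraries (points) with the group mean (bar), for aged groups left and young groups right of the line; black is OTC, orange Zfp219 and green Dusp5. Itgb1 peak 12 is high in Tprog and in Ttad of OTC (137 and 132) and lower in Ttad with the Zfp219 guide (47.5 and 53.7), and Itgav peak 5 is lowest in Tprog of each age and guide.

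Host age was compared in control cells over the 3 states both ages share, 6 aged against 8 young libraries. Itgav and Itgb1 were mostly more open in aged hosts, with 6 peaks higher and 1 lower at each. Itga1 was mostly less open, with 1 higher and 6 lower, and Itgal (0 higher, 2 lower) and Itgb7 (0 and 2) had calls in the lower direction alone. Itga4 had 1 higher and 2 lower, Itgae 1 and 2, and Itgb2 none. Of the Itgb7 calls, that at peak 1 was lost without any of 8 of the 14 libraries (adjusted p up to 0.234) and under quantile normalization. In all 31 integrin peaks were called, 15 higher and 16 lower (47.0%, against 36.5% of all peaks, 17.3% higher and 19.1% lower). Age and sequencing sheet cannot be told apart in these values.

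The largest age difference was at Itga1 peak 10, a weak site 40211 bases before the start site, with 2.26 to 31.6 reads in aged and 19.4 to 55.9 in young libraries, a log2 difference of -1.67 ± 0.29 (limma, adjusted p = 1.67e-06). Its ranges overlapped in the states pooled. Peak 9, 29082 bases before the start site and chosen after its values were seen, ranged from 24.8 to 62.2 in the aged libraries (median 37.2) and from 68.1 to 142 in the young ones (median 101). The ranges were separate, and the log2 difference was -1.42 ± 0.18 (limma, adjusted p = 1.54e-10). Peak 9 was also the 1 integrin peak that was lower in aged hosts without overlap in all 9 combinations of state and guide (1.52%, against 1.53% of all peaks), and 0 were higher in all 9 (against 0.954%). Over the 3 states of control cells alone, 7 peaks were higher in each (10.6%, against 8.46% of all peaks) and 6 lower (9.09%, against 8.73%). The stronger Itga1 peak 5 ran from 311 to 518 (median 463) in aged and from 448 to 683 (median 597) in young libraries, overlapping over the states pooled, with a log2 difference of -0.44 ± 0.07 (adjusted p = 3.24e-07).

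Itgal peak 1, outside the gene body of the LFA-1 alpha chain, had separate ranges, 313 to 367 (median 352) in aged and 436 to 582 (median 484) in young hosts. Its log2 difference was -0.52 ± 0.07 (limma, adjusted p = 1.78e-09). The Itga4 promoter, peak 4, ran from 572 to 768 (median 652) in aged and from 764 to 986 (median 876) in young hosts, with a log2 difference of -0.38 ± 0.06 (adjusted p = 1.93e-08). Its ranges met at a single pair of libraries. Itga4 peak 5, 10364 bases into the same gene, went the other way, 355 to 415 against 263 to 356 (log2 0.34 ± 0.08, adjusted p = 0.000496). Itga4 peak 3, a weaker site (mean 35.3 over all libraries) 24118 bases before the start site, was lower in aged hosts (log2 -0.72). That call was lost without any of 5 of the 14 libraries.

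Among peaks higher in aged hosts, Itgav peak 1 ranged from 1743 to 2569 (median 2385) against 1451 to 2046 (median 1722) in young hosts, with a log2 difference of 0.37 ± 0.04 (limma, adjusted p = 7.17e-14). The pooled ranges overlapped because Tprog was low in both ages, and within each of the 3 states aged libraries were above young ones. Itgav peak 14, a weak site beyond the gene, had 45.2 to 88.9 against 18.1 to 32.2 (log2 1.29 ± 0.27, adjusted p = 4.09e-05), with no overlap. Itgav peak 13, weaker still (mean 12.9 over all libraries), had a log2 difference of 1.32, and its call held without each of the 14 libraries in turn. Itgb1 peak 6 had 1190.5 to 1608 against 963 to 1288 (log2 0.25 ± 0.05, adjusted p = 5.28e-06). Itgb1 peak 12 differed by 1.04 ± 0.21 (adjusted p = 4.24e-05), from 38.5 to 152 in aged and from 9.0 to 86.4 in young hosts.

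**Figure D4:**
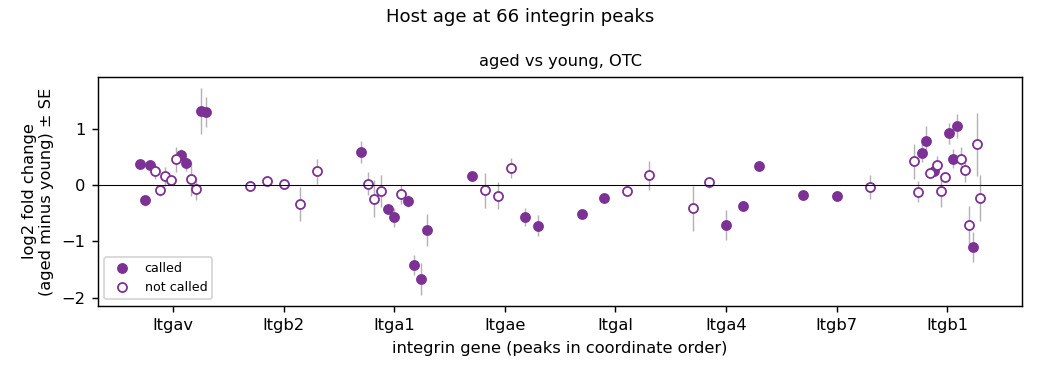
Each point is 1 of the 66 integrin peaks, grouped by gene and in coordinate order within it, with the log2 fold change of aged over young hosts in OTC control cells (± SE); filled points were called. At Itgav and Itgb1 6 called peaks lie above 0 and 1 below, and at Itga1 1 lies above and 6 below.

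With the Zfp219 guide in aged hosts, Itgav had the most falls: 7 of its 14 peaks fell and 0 rose, averaged over the 4 states, 8 libraries against 8. Falls also led at Itgb1 (4 fell, 1 rose), Itga4 (3 fell, 0 rose) and Itgb2 (2 fell, 0 rose). Itga1 went the other way (3 rose, 1 fell), Itgal had 1 rise, and Itgae and Itgb7 had 1 call each way. Together 26 integrin peaks changed, 7 up and 19 down (39.4%, against 25.8% of all peaks). Of all peaks, 12.1% rose and 13.7% fell.

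The largest fall at Itgav was at peak 14, the weak site beyond the gene (log2 -0.98), and its call held without each of the 16 libraries in turn. Itgav peak 10, 29559 bases into the gene, is a stronger site that also fell. It ranged from 126 to 199 (median 137) in aged OTC libraries and from 53.8 to 102 (median 76.3) with the Zfp219 guide, with no overlap, a log2 change of -0.92 ± 0.12 (limma, adjusted p = 4.19e-09). Peak 9 of the same gene ran from 215 to 373 (median 297) against 128 to 227 (median 162), a change of -0.71 ± 0.10 (adjusted p = 4.83e-09). The upstream peak 1 fell by 0.37 ± 0.04 on the log2 scale (adjusted p = 1.33e-14). It was 1609 to 1873 with the guide in every state, where OTC cells ranged from 1743 to 2569.

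At Itgb2, the LFA-1 beta chain, peak 3 had 522 to 748 (median 589.7) in OTC and 375 to 576 (median 447) in Zfp219 libraries, a log2 change of -0.46 ± 0.06 (limma, adjusted p = 2.06e-09). Itgb1 peak 6 fell by 0.23 ± 0.04 (adjusted p = 8.9e-06), from 1190.5 to 1608 in OTC to 1047 to 1209 with the guide. Itgb1 peak 12 fell by 0.96 ± 0.20 (adjusted p = 7.86e-05), from a median of 101 to 52.1. Among the 7 rises, Itgae peak 6 rose by 0.79 ± 0.17 (adjusted p = 0.000199), from a median of 44.7 to 82.7, and Itgal peak 1 by 0.29 ± 0.07 (adjusted p = 0.000262), from 352 to 424. Itgb1 peak 16, 78397 bases beyond the start site, had 6.02 to 20.7 in OTC and 13.6 to 59.9 with the guide (0.87 ± 0.25, adjusted p = 0.00467).

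With separate ranges required in each of the 4 aged states, 6 integrin peaks were lower with the Zfp219 guide (9.09%, against 5.14% of all peaks): Itgav 9, 10 and 14, Itgb1 12, Itgb2 3 and Itgb7 2. Another 2, Itga1 5 and 9, were higher (3.03%, against 2.53%). Itga1 peak 9, Itgal peak 1 and Itgae peak 6, all lower in aged than in young control cells, rose with the guide in aged cells, and Itgav peaks 1, 9, 10 and 14, higher in aged control cells, fell. Not every peak changed sign. The Itga4 promoter (peak 4) and Itgb7 peak 2 were lower in aged control cells and fell with the guide too. The fall at Itgb7 peak 2 was lost without any of 9 of the 16 libraries. The age call at Itgav peak 10 was lost without aged Tprog or Ttran replicate 2 or young Tprog replicate 1 (adjusted p up to 0.114). Both comparisons use the same aged control libraries, so these opposite signs are not separate findings.

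Within Ttad alone 7 integrin peaks fell and 1 rose with the Zfp219 guide (12.1%, against 8.23% of all peaks, 4.56% lower and 3.66% higher). Itgav peak 1 fell from 2207 and 2177 to 1611 and 1673 (log2 -0.42 ± 0.07, limma, adjusted p = 1.84e-05). Itgb1 peak 12, high in control Ttad, had 137 and 132 there and 47.5 and 53.7 with the guide (log2 -1.40 ± 0.39, adjusted p = 0.0143). The Itgav peak 1 call held without each of the 4 libraries in turn. The Itgb1 peak 12 call did not hold without any of them (adjusted p 0.0623 to 0.121), and the count of 8 became 1 to 5, the lowest without Zfp219 Ttad replicate 2.

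In young hosts 5 integrin peaks fell and 0 rose with the Zfp219 guide (7.58%, against 7.07% of all peaks, 5.15% lower and 1.92% higher): Itgb2 peaks 1 and 3, Itgb1 peak 6, Itgav peak 9 and Itgae peak 1. All 5 were among the 19 that fell in aged hosts, 100% of the young list and 26.3% of the aged one. The same overlap over all peaks is not given here, so it is not read as particular to integrins. Itgb2 peak 3 fell by 0.31 ± 0.06 (adjusted p = 0.000232), from 501 to 740.0 in OTC to 419.6 to 576, and Itgb1 peak 6 by 0.21 ± 0.04 (adjusted p = 0.000408, limma), from 963 to 1288 to 853 to 1078. With separate ranges required in all 3 young states, 4 peaks were lower (6.06%, against 1.51% of all peaks): Itgav 9, Itgb1 6 and Itgb2 1 and 3. No integrin peak was higher in all 3, against 0.568% of all peaks. The young Itgae peak 1 call was lost without young Zfp219 Tprog replicate 1 (adjusted p = 0.0691), and the aged one without any of 10 of the 16 libraries (up to 0.17) and under quantile normalization (0.136).

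**Figure D5:**
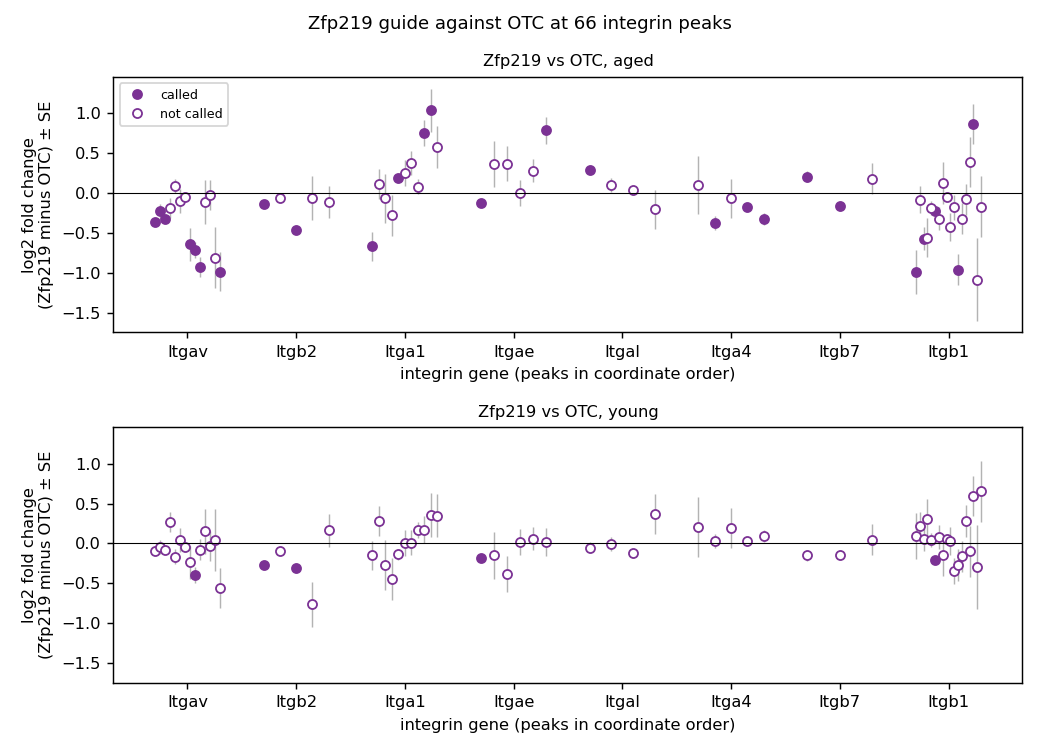
Each point is 1 of the 66 integrin peaks with the log2 fold change of the Zfp219 guide over OTC (± SE), averaged over the aged states (top) or the young states (bottom); filled points were called. In aged hosts 7 of the 14 Itgav peaks are called below 0, and in young hosts 1 is.

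The test of whether the Zfp219 change itself differed between ages, over the 3 shared states, called 7 integrin peaks (10.6%, against 9.11% of all peaks), 3 with a positive difference (4.09% of all peaks) and 4 with a negative one (5.01%). Itgav peak 10 had the largest difference, -0.90 ± 0.19 (limma, adjusted p = 0.00061): with the guide it ranged from 87.9 to 132 in young hosts, where OTC ranged from 96.1 to 134. Itga4 peak 5 differed by -0.47 ± 0.12 (adjusted p = 0.00377), having 355 to 415 in aged OTC and 231 to 359.7 with the guide, but 263 to 356 and 279 to 358 in young hosts. The aged range with the guide includes Ttad, which is not in this test. Itgal peak 1 differed by 0.37 ± 0.10 (adjusted p = 0.00948) and Itgav peak 1 by -0.26 ± 0.05 (adjusted p = 0.000568). The other 3 were Itga1 peak 5, Itgav peak 3 and Itgb7 peak 1.

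With the Dusp5 guide fewer peaks were called than with the Zfp219 guide, at integrins as over all peaks (12.2% against 25.8% of all peaks in aged hosts). In aged hosts 9 integrin peaks were called, 2 higher and 7 lower (13.6%, against 12.2% of all peaks, 4.35% higher and 7.87% lower), and 3 of the 5 Itgb2 peaks were among those that fell. Itgb2 peak 1 had 857 to 1229 (median 1007) in OTC and 795 to 1049.8 (median 840.5) with the guide (log2 -0.22 ± 0.04, limma, adjusted p = 0.000107), and peak 3 fell by 0.30 ± 0.06 (adjusted p = 0.000149). Itga4 peak 5 fell by 0.34 ± 0.08 (adjusted p = 0.000746), from 355 to 415 in OTC to 247 to 369. Ranges overlapped at each of these peaks with the states pooled, and no integrin peak had separate ranges in all 4 aged states (against 0.702% of all peaks higher and 2.13% lower).

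In young hosts 1 integrin peak fell and 0 rose with the Dusp5 guide (1.52%, against 3.82% of all peaks, 2.02% lower and 1.8% higher). It was Itgb2 peak 1, which had 979.7 to 1154 in OTC and 885 to 1001 with the guide (log2 -0.16 ± 0.04, limma, adjusted p = 0.0149). Without young OTC Tprog replicate 1 the adjusted p was 0.0504. In Ttad 1 peak fell and 0 rose (1.52%, against 2.88%, 1.67% lower and 1.21% higher), Itgal peak 1, with 345 and 376 in OTC and 224 and 272 with the guide (log2 -0.54 ± 0.13, adjusted p = 0.00847). That call was lost without Dusp5 Ttad replicate 1 or OTC Ttad replicate 2 (adjusted p up to 0.169). The Dusp5 change differed between ages at 1 peak (1.52%, against 4% of all peaks, 2.73% lower and 1.27% higher), Itgav peak 1, by -0.21 ± 0.05 (limma, adjusted p = 0.0108), a call lost under quantile normalization (0.062). At an unadjusted p under 0.05, 15 integrin peaks passed in young hosts, 9 in Ttad and 8 in the test between ages. The share of all peaks passing that threshold is not given here, so these counts are not read as a result about integrins. All guide comparisons within an age use the same OTC libraries.

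The rest of the adhesion machinery is given by counts. The 18 other integrin genes held 82 peaks, of which 11 were higher and 13 lower in aged Tprog than Tterm (29.3%, against 20.1% of all peaks, 8.88% higher and 11.2% lower) and 14 and 7 in young hosts (25.6%, against 26.5%, 13.9% higher and 12.6% lower). Integrin activation needs talin and kindlin to bind the beta chain's tail, and 17 of 18 listed genes of this step held 150 peaks, with 5 higher and 22 lower in aged (18%) and 13 and 24 in young hosts (24.7%). Their median log2 difference in aged hosts was -0.07, against 0.01 for all peaks. The 12 genes of residency and egress with peaks, from a list of 13, held 129 peaks, with 21 and 28 (38.0%) and 43 and 21 (49.6%). A peak near Ccr7, the lymph node homing receptor, had 605 to 676 in aged Tprog against 93.5 to 148 in aged Tterm (log2 difference 2.43 ± 0.24, limma, adjusted p = 2.89e-14). A Vcam1 peak, at the gene of the VLA-4 ligand, had 89.6 to 104 against 17.4 to 36.7 in the same comparison (log2 1.89 ± 0.47, adjusted p = 0.00143).

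With host age, 10 peaks of the other integrin genes were higher and 25 lower in aged control cells (42.7%, against 36.5% of all peaks, 17.3% higher and 19.1% lower), and residency and egress genes had 47 and 22 (53.5%). With the Zfp219 guide in aged hosts the residency and egress peaks had 9 rises and 38 falls (36.4%, against 25.8% of all peaks, 12.1% up and 13.7% down), the other integrin genes 13 and 6 (23.2%) and the activation genes 25 and 20 (30.0%). With the Dusp5 guide in aged hosts the residency and egress peaks had 1 rise and 30 falls (24%), against 12.2% of all peaks called. Of the 6 ligand genes 5 held 13 peaks, of which 1 rose and 1 fell with the Zfp219 guide (15.4%).

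The pattern of each gene, the mean of log2(value + 1) over its peaks in each of the 21 groups, was compared by Pearson's r with those of 6391 genes with at least 3 peaks. The nearest to Itgb1 were Tespa1 (r = 0.96) and Lrig1 (r = 0.96), to Itga1 Eif2ak4 (r = 0.95) and Rbl1 (r = 0.94), to Itgav Lsp1 (r = 0.93) and Sytl3 (r = 0.91), and to Itgal Nrsn2 (r = 0.85) and Msra (r = 0.84). Itga4 was nearest to Tmem131 (r = 0.85) and Dip2c (r = 0.84), Itgb2 to Ywhaz (r = 0.82) and Rab11fip4 (r = 0.82), and Itgae to Rtca (r = 0.80) and Syt8 (r = 0.78). For Itgb7 the nearest was Rarg (r = 0.82), its neighbour on the chromosome. Among the members, the partners Itga1 and Itgb1 had r = -0.66 and the partners Itga4 and Itgb1 r = 0.47. The LFA-1 partners Itgal and Itgb2 had r = 0.13, Itgae and Itgb7 r = 0.08, and Itga4 and Itgb7 r = 0.16. These describe 21 group means that share libraries and scaling, and carry no test.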

How the data were processed

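The authors deposited a single table of ATAC-seq signal, normalized reads for 53868 peaks in 48 libraries. Per the submitters' processing notes, the tools included Bowtie2 2.2.9, Picard 2.8.0, SAMtools 1.3.1, MACS2 2.1.1 and DESeq2 1.28.1, on mm10. How peaks were merged over libraries is not given in the sources used here. The deposited signal in each library was a whole number of reads times 1 constant, and 100% of values gave whole reads within 0.01 reads, so depth was recovered. As a check of the build, 50.0% of 21896 protein-coding genes of the RefSeq table (GRCm38) had a boundary inside a peak, against 7.94% after a shift of 5000 bp and 8.06% after 100000 bp.

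Peaks went to the gene whose body they overlapped or which was nearest within 100 kb (51108 peaks had a gene). Each peak was tested with limma 3.58.1 (R 4.3.3, trended variance) on log2(value + 1), with 21 group means and all 48 libraries in the fit, and Benjamini-Hochberg adjustment over 53868 peaks. A fold change is on that log2 scale, which understates the change of weak peaks. Adjusted p-values are limma's throughout, two-sided, and a call is an adjusted p under 0.05. Alternatives were a pseudocount of 8, leaving out the weakest 25% of peaks, quantile normalization, edgeR 4.0.16 (quasi-likelihood, TMM) on the recovered reads, the compared groups alone, the replicate number as a block, and leaving out each library. On simulated data with 200 of 53868 peaks changed 2-fold, limma recovered 96.5% with 17 false calls for the Zfp219 comparison in aged hosts (8 against 8 libraries), and 62% with 22 false calls within Ttad (2 against 2). On the same simulated data edgeR recovered 97% with 17 false calls in the first and 64% with 5 in the second, fewer false calls than limma within Ttad. No changed peak was drawn from the weakest sites, and far fewer changed than were called in the data. These are therefore not the recovery rates of the comparisons themselves. Replicate pairs differed beyond counting noise in all 33 pairs (chi-square per degree of freedom 2.81 to 4.57), so none was counted as 1 sample.

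Named for each gene were its strongest peak, the called peak with the largest state difference, and the called peak with the largest difference for age, Zfp219 and Dusp5. The 3 largest calls of each test between ages were named too. From the other gene lists the largest called peak was named for Tprog against Tterm and for age. Other peaks are said to be chosen after their values were seen where first described. The members and lists were chosen with earlier results of these data known. Promoter sequences are RefSeq's, from 250 bases before to 50 after each start site, and the first 250 are used.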

Additional observations from a re-analysis of the deposited data

Results flagged for a closer look

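The change with the Zfp219 guide differed between aged and young hosts, by the test of that difference in limma, at 7 integrin peaks. The aged-minus-young log2 difference was -0.90 at Itgav peak 10, -0.47 at Itga4 peak 5, -0.26 at Itgav peak 1 and -0.24 at Itgav peak 3. With the guide all 4 fell in aged hosts, and none was called in young hosts, where the log2 change was -0.08, 0.10, -0.09 and -0.08 in that order. It was 0.37 at Itgal peak 1, 0.33 at Itga1 peak 5 and 0.33 at Itgb7 peak 1, which rose in aged hosts and were not called in young ones. Itgb7 peak 1 had a median of 384 in aged OTC and 433 in aged Zfp219 libraries, against 433 and 399 in young hosts. Ttad is in the aged Zfp219 median and in the aged falls and rises, and is not in the test of the difference. The calls at Itgav 10, Itga4 5, Itgav 1 and Itgal 1 held without each of 28 libraries in turn. Those at Itga1 5, Itgav 3 and Itgb7 1 were lost without 5, 9 and 13 of the 28.

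The Dusp5 change differed between ages at 1 peak, Itgav peak 1, by -0.21 on the log2 scale. The Tprog-minus-Tterm difference depended on host age at 1 peak, Itgb7 peak 2, by -0.54.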

How the results depend on the processing

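Leaving out 1 library of the compared groups at a time moved the number of integrin peaks called between Ttran and Tprog in aged hosts from 18 to between 9 and 13, between Ttran and Tterm from 2 to between 0 and 3 in aged and from 7 to between 4 and 7 in young hosts, between Ttad and Tterm from 8 to between 1 and 3, and between Ttad and Tprog from 4 to between 1 and 5. With the Zfp219 guide in Ttad it moved from 8 to between 1 and 5. From 1 it moved to between 1 and 3 for Dusp5 in young hosts, to between 1 and 2 for Dusp5 in Ttad, to between 1 and 2 for the Dusp5 difference between ages, and to 0 for the state difference between ages. Small counts also moved with the setting. Ttran against Tterm in aged hosts (2) gave 1 under quantile normalization, 4 in edgeR and 1 with the compared groups alone. Dusp5 in young hosts (1) gave 3 with a pseudocount of 8, 2 without the weakest 25% of peaks, 0 under quantile normalization, 4 in edgeR and 4 with the groups alone. Dusp5 in Ttad (1) gave 2 without the weakest 25%, 0 with the groups alone and 2 with the replicate block. The Dusp5 difference between ages (1) gave 0 under quantile normalization and 2 in edgeR. The state difference between ages (1) gave 0 under quantile normalization, 3 with the groups alone and 0 with the replicate block. The cause of these moves was not tested.

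Under quantile normalization the split of the Zfp219 difference between ages went from 3 positive and 4 negative to 1 and 4. In edgeR Ttran against Tterm in aged hosts had 3 higher and 1 lower, and Dusp5 in young hosts 2 and 2. Of 110 named values, none reversed under any alternative. Calls lost were 23 of 110 under quantile normalization, 2 in edgeR, 11 with the groups alone, 4 with the replicate block, 0 with a pseudocount of 8, and 0 of the 90 left without the weakest 25%. Leaving out single libraries lost 162 of 1201 calls. Replicate numbers did not pair the libraries: deviations of libraries with the same number correlated between -0.02 and 0.02. With the replicate block the aged against young count was 25 in place of 31. The 4 calls lost with the block were the age differences at Itgav peak 10 (adjusted p = 0.167), Itgb7 peak 1 (0.308) and Itgb7 peak 2 (0.0591), which are all the age calls of Itgb7, and the state difference between ages at Itgb7 peak 2. At 2 against 2 libraries, 62% of simulated 2-fold changes, none of them at the weakest sites, were recovered.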

Other observations

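Some peaks of genes around the integrins differed widely. Skap1, an adaptor of LFA-1 activation, had an intragenic peak with 1.77 to 3.40 reads in aged Tprog against 18.5 to 27.5 in aged Tterm (log2 -2.76 ± 0.59, limma, adjusted p = 0.000178). Vcl, which encodes vinculin of the adhesion-site cytoskeleton, had one with 131 to 147 in young Tprog against 21.2 to 25.3 in young Tterm (log2 2.57 ± 0.39, adjusted p = 1.18e-07). Itga7, a laminin-receptor chain, had 29.4 to 34.2 in young Tprog against 0.79 to 1.90 in young Tterm (log2 3.88 ± 0.82, adjusted p = 0.00011), and 8.87 to 11.3 against 0 to 3.27 in aged hosts (2.42 ± 0.90, adjusted p = 0.0447).

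With host age, a peak counted to Ptk2, the focal adhesion kinase gene, ranged from 33.8 to 67.8 in aged and from 7.16 to 26.9 in young control cells, with no overlap (log2 2.01 ± 0.31, limma, adjusted p = 1.05e-07). A peak in Ahr, whose product is the aryl hydrocarbon receptor, had 18.3 to 37.4 against 4.42 to 13.5, again with no overlap (log2 1.45 ± 0.41, adjusted p = 0.00304). A peak in Itga11, a collagen-receptor chain, had 20.4 to 68.7 against 2.15 to 29.2, which overlap (log2 1.73 ± 0.35, adjusted p = 3.94e-05). One counted to Cdh1, the E-cadherin gene, was lower in aged hosts, 7.97 to 24.7 against 19.3 to 59.6 (log2 -1.36 ± 0.28, adjusted p = 4.39e-05).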
